A study of Mus musculus with 6 samples.

Results

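The 7 genes described here encode proteins of the acute-phase response, Saa3, Hp, Clu, C3 and Lcn2, and the metallothioneins Mt1 and Mt2, among the 37315 gene entries measured by RNA sequencing in 6 libraries of mouse 3T3-L1 cells. 3T3-L1 is a mouse fibroblast line, derived from embryos, whose cells turn into fat cells under inducing hormones. The genes were chosen on measured values of these same libraries: Saa3, Hp, Clu and Mt1 because they separated METTL3-experiment libraries numbered 1 from those numbered 2, and C3 because it was lower in the FTO knockdown library. Lcn2 and Mt2 complete the set as members of the same classes. The contrasts between library numbers and within the FTO experiment are therefore descriptions without a test, and the METTL3 knockdown was tested against its controls. The choice did not use the difference between those groups, but for Saa3, Hp, Clu and Mt1 it used the spread within them, which the test divides by.

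The groups were METTL3 knockdown (2 libraries), METTL3 control (2 libraries), FTO knockdown (1 library) and FTO control (1 library). METTL3 is the enzyme that places N6-methyladenosine on mRNA, and FTO is a demethylase of RNA. All 6 libraries came from transiently transfected 3T3-L1 cells, the file headers mark the knockdown columns with an "si" prefix, and what the controls were given is not stated in the labels. Nothing in the labels says that libraries of a group came from separate cultures, so p-values measure only the spread between these libraries, which may be technical. The METTL3 libraries were read in single-read mode and the FTO libraries in paired-end mode, so experiment and sequencing mode cannot be told apart.

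The 6 libraries held between 28348179 and 44580722 counted reads. Levels are given in CPM, counts scaled to the library total. A gene with no read could still have stood at 3 reads, for counting error only. That is 0.0673 to 0.106 CPM across the libraries, by library totals without TMM. The targeted transcripts were lower in the libraries labelled as knockdowns. Mettl3 stood at 7.68 and 6.55 CPM in the METTL3 knockdowns, against 25.1 and 28.9 CPM in the METTL3 controls. Fto stood at 49.2 CPM in the FTO knockdown, against 155 CPM in the FTO control. All 10 fibroblast and pre-adipocyte markers were detected in every library. The 5 hepatocyte markers summed to at most 0.112 CPM, with Ttr at 0 reads in all 6 libraries.

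The acute-phase response is the change in circulating proteins that follows infection or injury. It is best known in liver, where interleukin 6 and interleukin 1 act through STAT3, C/EBP and NF-kB factors, and fat tissue makes several of the same proteins. Saa3 encodes a serum amyloid A made mainly outside the liver, Hp encodes haptoglobin, which binds free haemoglobin, and Clu encodes clusterin, a secreted chaperone. Lcn2 encodes lipocalin 2, which binds iron-carrying siderophores of bacteria, and C3 encodes the central component of complement. Mt1 and Mt2 encode small cysteine-rich proteins that bind zinc and copper. Their transcription is known to be raised by zinc through the factor MTF1, which binds metal response elements, and by glucocorticoids.

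All 7 genes are protein coding. On GRCm38, the assembly also called mm10, Mt2 (ENSMUSG00000031762, chr8:94172664-94173568) and Mt1 (ENSMUSG00000031765, chr8:94179082-94180327) are neighbours on the plus strand, and Hp (ENSMUSG00000031722, chr8:109575128-109579172) lies farther along the same chromosome on the minus strand. Saa3 (ENSMUSG00000040026) lies at chr7:46711998-46715700 on the minus strand, Clu (ENSMUSG00000022037) at chr14:65968483-65981547 on the plus strand, C3 (ENSMUSG00000024164) at chr17:57203970-57228136 on the minus strand and Lcn2 (ENSMUSG00000026822) at chr2:32384633-32388252 on the minus strand. Of the windows of 101 bp, the read length, in the GENCODE transcripts of each member, 0 were identical to a transcript of another gene for 6 of the 7. For Mt2, 22.3% of windows matched the antisense gene Gm45774, whose exons overlap Mt2 over 432 bp. Strand handling is not given in the sources used here, so reads of Mt2 and of Gm45774 may not have been told apart.

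RefSeq entries (GRCm38.p6) gave promoters for 5 of the 7 members. The 250 bases before the annotated start are shown for the metallothionein neighbours, whose levels differed by unequal amounts, and for Saa3 and C3, which represent the library-number and the FTO contrast. The starts are those of RefSeq, which for Mt1, Mt2 and Saa3 differ from the GENCODE positions given above. Each is written 5′ to 3′ on the strand of its gene. In Mt1 (chr8:94178839-94179088, plus strand) and Mt2 (chr8:94172368-94172617, plus strand) the capitals mark the core letters of a metal response element, TGCACNC or TGCGCNC, searched on both strands. In Saa3 (chr7:46715677-46715926, minus strand) and C3 (chr17:57228137-57228386, minus strand) they mark a C/EBP motif, TTGCNNAA, and an NF-kB motif, which is GGGA and CC with any 4 bases between them, on both strands, and no marked motif overlaps another.
Mt1 promoter: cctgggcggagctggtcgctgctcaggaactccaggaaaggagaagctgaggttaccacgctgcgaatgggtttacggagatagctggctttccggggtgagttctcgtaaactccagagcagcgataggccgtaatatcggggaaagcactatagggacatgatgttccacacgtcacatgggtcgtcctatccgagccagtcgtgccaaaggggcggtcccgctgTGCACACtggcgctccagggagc
Mt2 promoter: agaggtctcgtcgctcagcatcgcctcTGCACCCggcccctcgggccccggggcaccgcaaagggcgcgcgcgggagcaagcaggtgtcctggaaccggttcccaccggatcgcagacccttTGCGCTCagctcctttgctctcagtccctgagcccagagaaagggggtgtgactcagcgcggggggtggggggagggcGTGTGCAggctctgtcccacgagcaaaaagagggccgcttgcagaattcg
Saa3 promoter: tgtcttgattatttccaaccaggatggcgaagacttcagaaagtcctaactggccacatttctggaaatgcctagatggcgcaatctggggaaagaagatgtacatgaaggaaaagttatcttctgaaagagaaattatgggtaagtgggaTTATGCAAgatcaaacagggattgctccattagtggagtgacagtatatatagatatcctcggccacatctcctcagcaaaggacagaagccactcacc
C3 promoter: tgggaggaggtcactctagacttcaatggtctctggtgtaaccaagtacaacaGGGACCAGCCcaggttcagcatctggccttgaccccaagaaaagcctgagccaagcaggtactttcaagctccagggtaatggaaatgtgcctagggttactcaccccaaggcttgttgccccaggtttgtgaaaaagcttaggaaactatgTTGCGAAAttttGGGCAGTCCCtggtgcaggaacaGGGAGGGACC

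Mt2 held 3 matches to the metal response element core and Mt1 held 1, where 21.4% of 32851 promoters of the same length held at least 1 and 1.26% held 3 or more. Saa3, C3, Lcn2 and Mt2 each held 1 C/EBP match, a motif present in 9.56% of promoters, and Mt1 held 0. C3 also held 3 NF-kB matches, a motif present in 17.6% of promoters and at least 3 times in 0.356%. Mt1 held 1 NF-kB match, and Saa3, Lcn2 and Mt2 held 0 in this window. The C/EBP match of Mt2 and the NF-kB match of Mt1 are not in capitals above. A STAT motif, TTCNNNGAA, had 0 matches in all 5 members. These matches describe letters in the window and say nothing of binding. Elements outside it, past the annotated start included, were not counted. The counts therefore do not show that Mt1 has fewer metal response elements than Mt2.

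Levels of different genes were compared in RPKM, the authors' deposited values, which scale reads by gene length and by read total. Mt1 over Mt2 in METTL3 control 1 was 7.12 in RPKM and 6.91 in reads, so the authors' lengths for this pair were nearly equal. GENCODE exon lengths are 1246 bp for Mt1 and 588 bp for Mt2. The order of members below therefore holds for the authors' lengths and may differ with others. Mt1 had the highest RPKM of the members in every library. It stood at 1484 and 806 RPKM in the METTL3 knockdowns, 1505 and 752 RPKM in the METTL3 controls, 280.4 RPKM in the FTO knockdown and 486 RPKM in the FTO control. In RPKM rank over all entries, it was 16th and 34th in the METTL3 knockdowns and 15th and 42nd in the METTL3 controls. C3 took the most reads of the members in every METTL3 library, 0.241% and 0.184% of all counted reads in the METTL3 knockdowns and 0.336% and 0.249% in the METTL3 controls.

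Saa3 and C3 followed Mt1 in the METTL3 libraries. Saa3 had 652 and 298 RPKM in the METTL3 knockdowns and 619 and 315 RPKM in the METTL3 controls. C3 had 430.0 and 329 RPKM in the METTL3 knockdowns and 601 and 448 RPKM in the METTL3 controls. The ranges of Saa3 and C3 overlapped, so their order is not fixed by these libraries. Mt2 ran from 173 to 230.1 RPKM in the METTL3 knockdowns and from 129 to 211 RPKM in the METTL3 controls, and its range over the 4 libraries enclosed that of Lcn2, at 165 to 169 RPKM in the METTL3 knockdowns and 145 to 160.1 RPKM in the METTL3 controls. In the FTO knockdown the RPKM values were 194 for Saa3, 82.7 for Lcn2, 61.5 for Mt2, 27.6 for C3, 7.01 for Hp and 0.190 for Clu. In the FTO control they were 129.6 for Saa3, 67.6 for Mt2, 64.6 for C3, 60.5 for Lcn2, 6.43 for Hp and 0.548 for Clu. In the METTL3 libraries, Hp (44.1 to 84.9 RPKM in METTL3 knockdowns, 38.9 to 91.0 RPKM in METTL3 controls) and Clu (4.60 to 11.1 RPKM in METTL3 knockdowns, 4.85 to 12.2 RPKM in METTL3 controls) stood below all other members, and Clu below Hp.

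All 7 members had a lower RPKM in both FTO-experiment libraries than in any of the 4 METTL3-experiment libraries. Over all genes with an RPKM of at least 1 in 2 or more libraries, 51.4% did so, so this ordering is common. The mean over METTL3 libraries was at least 2-fold that of the FTO libraries for all 7, against 25.1% of genes. The ratio of these means was 22.2 for Clu, 9.80 for C3, 9.63 for Hp, 2.97 for Mt1, 2.91 for Saa3, 2.88 for Mt2 and 2.23 for Lcn2. The read totals that RPKM implies, relative to counted reads, exceeded that of METTL3 control 1 by a factor of 1.19 in the FTO knockdown and 1.20 in the FTO control, which lowers FTO values by that factor. The lowest METTL3 library exceeded the highest FTO library by 1.54-fold for Saa3, the smallest such margin, and by 8.38-fold for Clu, the largest. Mode of sequencing differed with the experiment, and its part in these differences cannot be told apart from that of the cells.

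**Figure D1:**
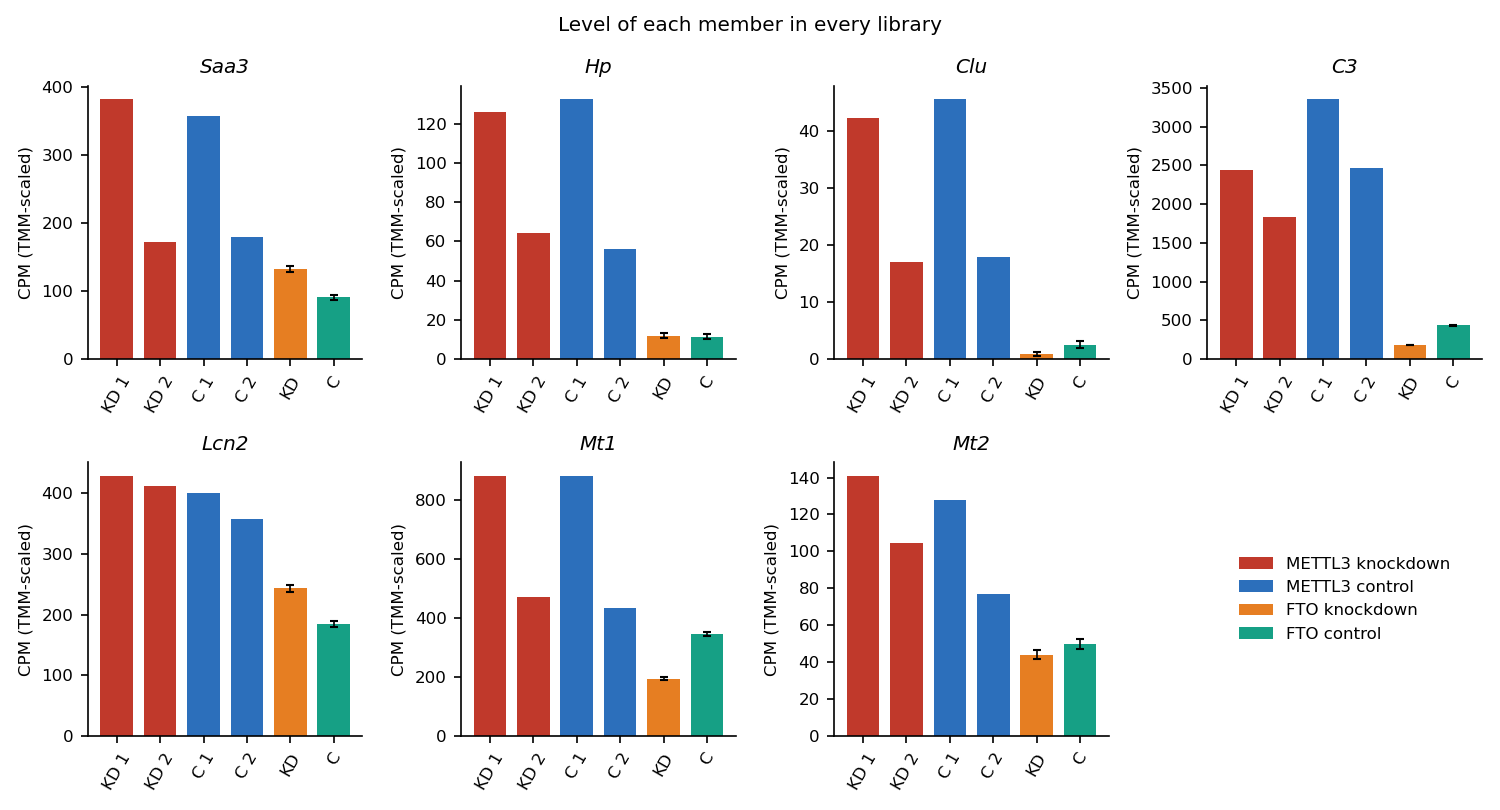
Level of each member in every library, in TMM-scaled CPM (each panel has its own axis, starting at 0; KD, knockdown; C, control; numbers are library numbers; scaling is within each experiment, so heights compare within METTL3 and within FTO). Error bars on the FTO libraries are 95% counting intervals; the bars of Saa3, Hp, Clu and Mt1 alternate high and low with library number in the METTL3 experiment, and C3 stands at 182 CPM in the FTO knockdown and 438 CPM in the FTO control.

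Within the METTL3 experiment, levels are again given in CPM scaled by TMM, a method that sets library sizes by the bulk of genes. Saa3 stood at 172 CPM in knockdown 2 and 382 CPM in knockdown 1, and at 179.6 CPM in control 2 and 357 CPM in control 1. The libraries numbered 1 were high and those numbered 2 low in both groups. Hp stood at 64.1 CPM in knockdown 2 and 126 CPM in knockdown 1, and at 56.1 CPM in control 2 and 133 CPM in control 1. Clu stood at 17.1 CPM in knockdown 2 and 42.2 CPM in knockdown 1, and at 17.9 CPM in control 2 and 45.6 CPM in control 1. For Hp and Clu, too, each number-1 library lay above each number-2 library, whatever the treatment.

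Mt1 showed the same order, with 471 CPM in knockdown 2 and 884 CPM in knockdown 1, and 435 CPM in control 2 and 883 CPM in control 1. Mt2 had a smaller gap, with 104 CPM in knockdown 2 and 141 CPM in knockdown 1, and 76.8 CPM in control 2 and 128 CPM in control 1. Both metallothioneins were lower in number 2 of each group. C3 stood at 1831 CPM in knockdown 2 and 2439.6 CPM in knockdown 1, and at 2469 CPM in control 2 and 3355 CPM in control 1. Lcn2 varied least, with 412 CPM in knockdown 2 and 429.6 CPM in knockdown 1, and 357 CPM in control 2 and 400.1 CPM in control 1. Lcn2 and C3 did not separate by number across the groups.

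As log2 ratios of number 2 over number 1, with a pseudocount of 1 CPM, the knockdown and control pairs were negative for each member. Clu stood at -1.25 in the knockdowns and -1.30 in the controls. Saa3 stood at -1.15 in the knockdowns and -0.99 in the controls. Hp stood at -0.96 in the knockdowns and -1.23 in the controls, and Mt1 at -0.91 in the knockdowns and -1.02 in the controls. The values of Mt2 were -0.43 in the knockdowns and -0.73 in the controls, those of C3 were -0.41 in the knockdowns and -0.44 in the controls, and those of Lcn2 were -0.06 in the knockdowns and -0.16 in the controls. All 7 were negative in both groups, as were 36.0% of the 13697 genes tested. A ratio past 2-fold lower was found for 2 members in the knockdowns (Saa3 and Clu), against 0.241% of genes, and for 3 in the controls (Hp, Clu and Mt1), against 0.38% of genes. Clu was past it in both groups, against 0.161% of genes. The choice of members used this contrast, and nothing is read from these counts. Whether the number-2 to number-1 difference itself differed between knockdowns and controls was not tested, since each group has 1 library of each number.

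**Figure D2:**
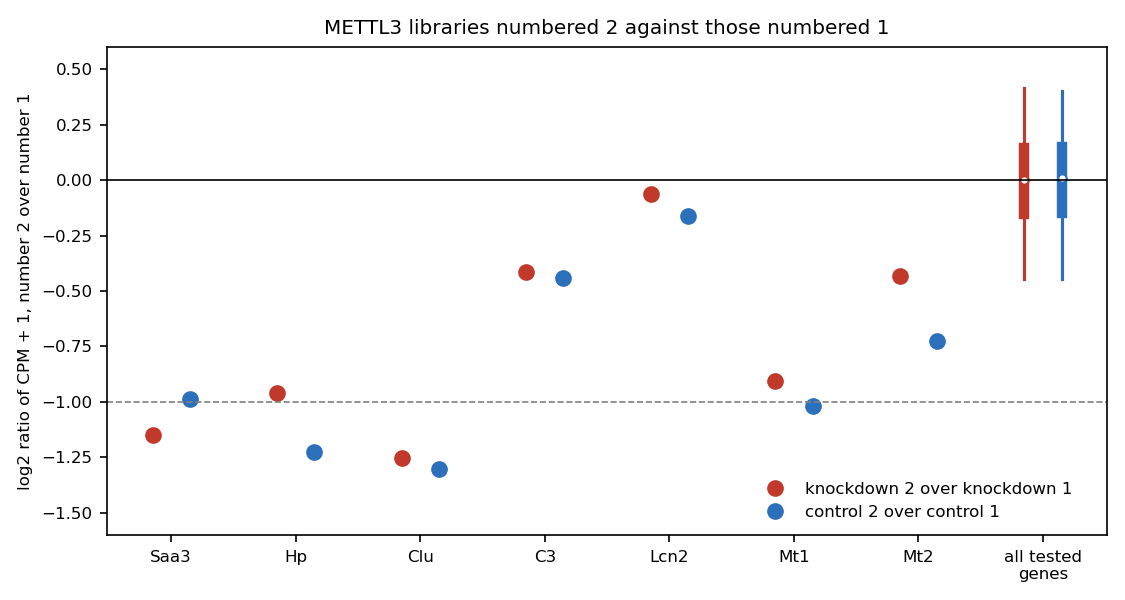
Log2 ratio of CPM + 1 of the METTL3 library numbered 2 over that numbered 1, for each member, in the knockdowns (red) and in the controls (blue). At the right, thick bars span the quartiles and thin bars the 5th to 95th percentiles of 13697 genes, with the median as a white point; the dashed line marks 2-fold lower. Clu lies below the line in both groups, and Lcn2 lies nearest to 0.

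Depth did not follow the number, with 44580722 reads in knockdown 2 and 41841866 in knockdown 1, and 41773967 in control 2 and 43254253 in control 1. Marker sums of other cell states did move with it, though not every marker followed the sum of its list. The 5 myofibroblast markers summed to 1277 CPM in knockdown 2 and 651 CPM in knockdown 1, and to 1804 CPM in control 2 and 682 CPM in control 1, the opposite direction to the members, with 0 markers at 0 reads. The 7 adipocyte markers summed to 240.1 CPM in knockdown 2 and 411 CPM in knockdown 1, and to 319.6 CPM in control 2 and 521 CPM in control 1. Of these, Lep was at 0 in 3 of the 4 libraries, and most of the sum was Lpl. Fabp4 did not share this gap, at 17.4 CPM in knockdown 2, 15.8 in knockdown 1, 21.8 in control 2 and 21.9 in control 1. The 7 macrophage markers summed to 33.3 CPM in knockdown 2 and 37.1 CPM in knockdown 1, and to 23.3 CPM in control 2 and 29.6 CPM in control 1, with Ptprc and Adgre1 at 0 in 3 of the 4 libraries. Among the 4 macrophage markers tested, Cd14 was lower in number 2 in both groups and Csf1r was higher in both. Cd14 stood at 21.7 CPM in knockdown 2, 27.1 CPM in knockdown 1, 15.7 CPM in control 2 and 21.9 CPM in control 1. Csf1r stood at 5.95 CPM in knockdown 2, 4.63 CPM in knockdown 1, 3.99 CPM in control 2 and 2.80 CPM in control 1. The part of the marker lists in the number difference was not tested. In bulk RNA, fewer cells of a type and less RNA per cell cannot be told apart.

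Knockdown of METTL3 was set against its own controls to ask whether the members differ with the loss of METTL3. C3 was lower and Lcn2 higher in both knockdowns than in both controls, and the other 5 members overlapped between the groups. No member passed this test, which took no account of library number. A fit that did is given below, with the other settings. C3 averaged 2136 ± 430.0 CPM in the knockdowns and 2912 ± 627 CPM in the controls (SD, n = 2 each), which edgeR's quasi-likelihood test over all genes put at -0.45 on the log2 scale (SE 0.21, adjusted p = 0.495). Lcn2 averaged 421 ± 12.6 CPM in the knockdowns and 379 ± 30.3 CPM in the controls, or 0.15 on the log2 scale (SE 0.11, edgeR adjusted p = 0.651).

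Among 13697 genes tested, 22.0% had both knockdowns below both controls and 21.0% had both above, so 1 member of 7 in each direction is near the background. Of the 7, 0 were called at an adjusted p under 0.05, where 0.0146% of all genes (2 genes) were called by edgeR. At an unadjusted p under 0.05, 0 of the 7 members and 11.5% of genes passed. DESeq2 called 0 of the 7 and 1.7% of genes. The smallest two-sided p of an exact permutation test on a single gene here, with 2 libraries per group, is 0.333.

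The other 5 members had standard errors from 0.28 to 0.58 on the log2 scale. Saa3, Hp, Clu and Mt1 were chosen for a difference between the libraries of each group, which makes their standard errors large, so nothing is read from their missing the threshold. Saa3 averaged 277 ± 149 CPM in the knockdowns and 268 ± 125 CPM in the controls (log2 fold change 0.04, SE 0.47, edgeR adjusted p = 0.979). Hp averaged 94.9 ± 43.6 CPM in the knockdowns and 94.4 ± 54.1 CPM in the controls (0.01, SE 0.49, edgeR adjusted p = 0.997), and Clu 29.7 ± 17.7 CPM in the knockdowns and 31.8 ± 19.6 CPM in the controls (-0.10, SE 0.58, edgeR adjusted p = 0.966). Mt1 averaged 678 ± 292 CPM in the knockdowns and 659 ± 316 CPM in the controls (0.04, SE 0.43, edgeR adjusted p = 0.979). Mt2 averaged 123 ± 26.0 CPM in the knockdowns and 102 ± 36.0 CPM in the controls (0.26, SE 0.28, edgeR adjusted p = 0.771). These misses do not show that levels were equal.

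For Saa3, Hp, Clu and Mt1, libraries of the same number lay closer together than libraries of the same group. Knockdown 1 over control 1 gave log2 ratios of 0.10 for Saa3, -0.08 for Hp, -0.11 for Clu and 0.00 for Mt1. Knockdown 2 over control 2 gave -0.07 for Saa3, 0.19 for Hp, -0.06 for Clu and 0.11 for Mt1. C3 stood at -0.46 for number 1 and -0.43 for number 2, Lcn2 at 0.10 for number 1 and 0.20 for number 2, and Mt2 at 0.14 for number 1 and 0.44 for number 2. The labels do not say what a shared number means, and these are values of single pairs of libraries.

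**Figure D3:**
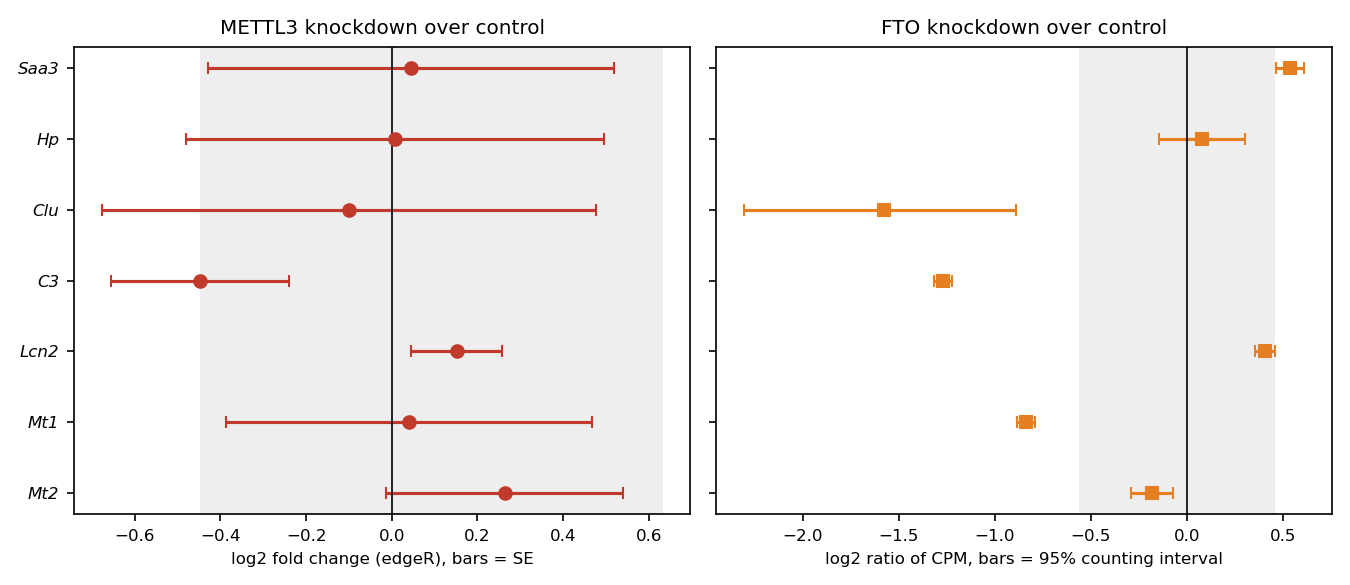
Change of each member in the METTL3 knockdown (left, edgeR log2 fold change over the METTL3 control, bars are standard errors, 2 libraries per group) and in the FTO knockdown (right, log2 ratio of CPM over the FTO control, bars are 95% counting intervals, 1 library per group). The grey bands span the 5th to 95th percentiles of the 13697 genes tested (left) and of 11432 genes with 50 reads or more (right). On the right the band uses CPM + 1 and the points use no pseudocount, so points and band are on unlike scales. Clu is at -1.57 without the pseudocount and -0.93 with it. C3 is at -0.45 on the left and -1.27 on the right.

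In the FTO experiment, C3 was 0.415 times as high in the knockdown as in the control, and Mt1 0.559 times as high, while Saa3 and Lcn2 were higher. These are single libraries, and C3 was chosen on this contrast, so the values are a description. Folds are ratios of TMM-scaled CPM with 95% intervals that cover counting error only. C3 had 5222 reads (182 CPM) in the FTO knockdown and 12684 reads (438 CPM) in the FTO control, with an interval of 0.401 to 0.428 for the fold. Clu had 24 reads in the FTO knockdown and 72 in the FTO control, a fold of 0.336 with an interval of 0.202 to 0.539.

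Mt1 had 5567 reads (194 CPM) in the FTO knockdown and 10025 reads (347 CPM) in the FTO control, with an interval of 0.541 to 0.578 for the fold. Its neighbour Mt2 had 1257 reads (43.8 CPM) in the FTO knockdown and 1436 reads (49.6 CPM) in the FTO control, a fold of 0.882 with an interval of 0.817 to 0.951. The intervals of the metallothioneins did not overlap each other. Saa3 had 3789 reads (132 CPM) in the FTO knockdown and 2630 reads (90.9 CPM) in the FTO control, a fold of 1.45 (1.38 to 1.53). Lcn2 had 6995 reads (243 CPM) in the FTO knockdown and 5320 reads (184 CPM) in the FTO control, a fold of 1.32 (1.28 to 1.37). Hp had 346 reads in the FTO knockdown and 330 in the FTO control, a fold of 1.06 whose interval, 0.905 to 1.23, includes no difference.

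On the log2 scale with a pseudocount of 1 CPM, 1 member (C3, at -1.27) was past 2-fold lower, where 0.77% of 11432 genes were (those counted at 50 reads or more in 1 of the libraries). None was past 2-fold higher, where 0.341% of genes were. Clu stood at -0.93 and Mt1 at -0.84 on this scale. The METTL3 control libraries differed from each other by as much for Mt1 (-1.02, number 2 over 1). Mt1 was chosen on that contrast, so this gap is not a measure of the usual spread between libraries. Fibroblast markers were also lower in the FTO knockdown. Their summed level over 10 genes was 8308 CPM in the FTO knockdown and 12569.9 CPM in the FTO control, with 0 at 0 reads. The median log2 ratio of the 9 with enough reads was -0.69, including Pdgfra at -1.01 and Col1a1 at -0.88. The 7 adipocyte markers summed to 245 CPM in the FTO knockdown and 357 CPM in the FTO control, with Adipoq and Lep at 0 reads in both. Most of each sum was Lpl, at 203 CPM in the FTO knockdown and 309.9 CPM in the FTO control. Fabp4 differed less, at 42.1 CPM in the FTO knockdown and 47.0 CPM in the FTO control (log2 ratio -0.16). The part of these shifts in the value of C3 was not tested.

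The balance of the metallothioneins varied between libraries. Mt1 over Mt2 in RPKM was 6.45 and 4.65 in METTL3 knockdowns 1 and 2, and 7.12 and 5.84 in METTL3 controls 1 and 2. It was 4.56 in the FTO knockdown and 7.19 in the FTO control. Each METTL3 knockdown lay below the control of the same number, while the groups overlapped. The size of these ratios rests on the authors' gene lengths, so only their differences between libraries are read.

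The other genes of the pathways were read from lists, none of which held a gene called by edgeR or by DESeq2. Of 25 other acute-phase genes, 14 had enough reads to be tested and 0 were called in either direction by edgeR. At an unadjusted p under 0.05 there were also 0, against 11.5% of all genes. There were 8 positive and 6 negative log2 fold changes, with a median of 0.12, against 0.00 over all 13697 genes. Serpina3n, a serine protease inhibitor, stood at 33.6 and 7.87 CPM in METTL3 knockdowns 1 and 2 and at 16.8 and 3.46 CPM in METTL3 controls 1 and 2 (log2 fold change 1.03, SE 0.92). Orm1, which encodes orosomucoid, had 165 and 78 reads in METTL3 knockdowns 1 and 2 and 260 and 143 reads in METTL3 controls 1 and 2 (-0.71, SE 0.47). For both, as for 12 of the 14 genes, number 2 was lower than number 1 in each group, against 36.0% of all genes tested, with median log2 ratios of -0.35 in the knockdowns and -0.43 in the controls. The medians over all genes were 0.00 in the knockdowns and 0.01 in the controls. For the FTO libraries, 5 of the list were measured, with a median log2 ratio of -0.54 and 0 past 2-fold. Serpina3g, another inhibitor of this class, stood at 30.8 CPM in the FTO knockdown and 46.7 CPM in the FTO control (-0.58), and Steap4, a metalloreductase, had 33 reads in the FTO knockdown and 63 in the FTO control (-0.56). The close Saa3 relatives Saa1 and Saa2 were weakly counted, at no more than 1.25 CPM in any library.

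Of 22 other complement genes, 13 were tested and 0 were called by edgeR, with 3 at an unadjusted p under 0.05, against 11.5% of all genes (median log2 fold change 0.17, with 9 positive and 4 negative). Masp2, a protease of the lectin pathway, had 58 and 67 reads in METTL3 knockdowns 1 and 2 and 38 and 25 reads in METTL3 controls 1 and 2 (0.98, SE 0.30, edgeR adjusted p = 0.361). Serping1, the C1 inhibitor, stood at 3.80 and 4.59 CPM in the knockdowns and 2.70 and 2.80 CPM in the controls (0.61, SE 0.20, edgeR adjusted p = 0.378). In the FTO experiment, 8 of the list had at least 50 reads in either library, with a median log2 ratio of -0.31. The C1 protease genes C1s1 (42.8 CPM in the FTO knockdown, 80.1 CPM in the FTO control) and C1ra (107 CPM in the FTO knockdown, 181 CPM in the FTO control) had log2 ratios of -0.89 and -0.75. None of the 8 was past 2-fold.

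Among 23 genes of acute-phase signalling, covering cytokines, receptors, JAK-STAT and NF-kB genes, 19 were tested and 0 were called by edgeR. At an unadjusted p under 0.05 there were 0, against 11.5% of all genes (median log2 fold change 0.13). Lif, a cytokine of the interleukin 6 family, stood at 1.67 and 3.76 CPM in the METTL3 knockdowns and 1.32 and 1.40 CPM in the METTL3 controls (1.00, SE 0.42, edgeR adjusted p = 0.455). Socs3, a feedback inhibitor of cytokine signalling, stood at 285 and 159 CPM in METTL3 knockdowns 1 and 2 and 201 and 114 CPM in METTL3 controls 1 and 2 (0.50, SE 0.37, edgeR adjusted p = 0.671). In the FTO experiment, 2 of 20 measured genes were past 2-fold higher, against 0.341% of genes, and 0 lower. These were Il1a, which encodes interleukin 1 alpha (443 reads in the FTO knockdown, 132 in the FTO control, log2 ratio 1.56), and Lif (305 reads in the FTO knockdown, 125 in the FTO control, 1.13). The median of the list was -0.13.

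Of 28 zinc and metal handling genes, 18 were tested and 0 were called by edgeR. At an unadjusted p under 0.05 there were 0, against 11.5% of all genes. There were 9 positive and 9 negative log2 fold changes, with a median of 0.02. Both METTL3 knockdowns lay below both controls for 8 of the 18, against 22.0% of all genes, and above for 3, against 21.0%. Mt3 and Mt4, the other metallothionein genes, had at most 4 reads in any library. The zinc importers Slc39a13 (164 and 126 CPM in the METTL3 knockdowns, 131 and 90.6 CPM in the METTL3 controls) and Slc39a8 (2.33 and 1.81 CPM in the knockdowns, 2.73 and 2.63 CPM in the controls) had the largest changes in size, at 0.39 (SE 0.22) and -0.37 (SE 0.22). In the FTO experiment, the zinc exporter gene Slc30a1 had a log2 ratio of 0.51 (8.35 CPM in the FTO knockdown, 5.56 CPM in the FTO control), while Mt1 and Mt2 were lower there. Slc39a3, a further importer, stood at -0.28, and 0 of the 18 measured genes were past 2-fold. Number 2 was lower than number 1 in both METTL3 groups for 6 of the 18, near the 36.0% of all genes tested, and higher in both for 4.

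**Figure D4:**
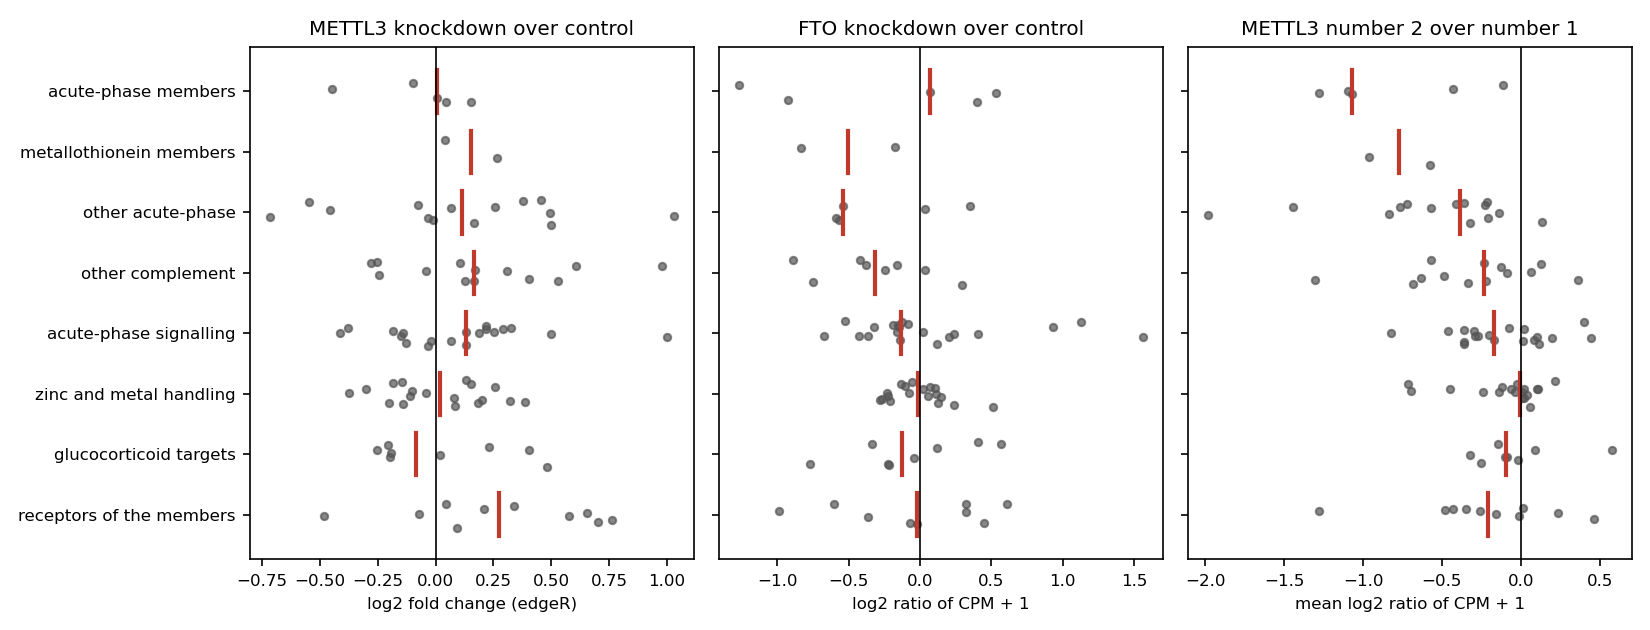
Log2 changes of the members and of the pathway lists in the METTL3 knockdown over control (left, edgeR), the FTO knockdown over control (middle, CPM + 1) and METTL3 number 2 over number 1 (right, mean over both groups, CPM + 1). Each point is 1 gene and the red line is the list median, which on the left is between -0.09 and 0.27 for every list shown.

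The genes with the most similar profiles to each member over the 6 libraries were found by the root mean square difference in log2(CPM + 1), centred on each gene's mean, among 12375 genes with at least 1 CPM in 2 or more libraries. The nearest were Mndal (0.13), Tgtp2 (0.19) and 1700001O22Rik (0.20) for Saa3, and Sned1 (0.16), Mx2 (0.19) and Zbp1 (0.19) for Hp. For Clu they were Gdpd2 (0.14), Matn4 (0.26) and Bst2 (0.28), and for C3 Apol9a (0.16), Col6a2 (0.20) and Col6a1 (0.21). The nearest to Lcn2 were Clcn2 (0.05), Bri3bp (0.06) and Ggnbp1 (0.07). For Mt1 they were Amdhd2 (0.09), Adhfe1 (0.09) and Appl2 (0.13), and for Mt2 Tcp11l1 (0.06), Ctsf (0.07) and Tspyl2 (0.08). No member was among the 3 nearest of another. The pseudocount of 1 CPM shrinks changes of weakly counted genes, so a small difference need not mean equal folds. Tgtp2 stood at 0.828 to 2.40 CPM in the METTL3 libraries, 0.0348 CPM in the FTO knockdown and 0 in the FTO control. Mndal, Adhfe1, Ctsf and Ggnbp1 were also low, at no more than 6.52 CPM in any library. Within the set, Mt1 and Mt2 were closest to each other (0.27) and Clu and Lcn2 farthest apart (1.37).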

How the data were processed

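The labels place the 6 libraries in 4 groups. Reads were 101 bp long, from 2.5 µg of input RNA, per the labels' protocols. Read counts per Ensembl gene were deposited by the authors as whole numbers that had not been normalised. RPKM values were made by the authors from those counts, with gene lengths and read totals not given in the sources used here. The submitters' processing notes list TopHat2 2.0.9, bedtools and mm10, without saying what each did.

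Symbols and positions came from GENCODE mouse M21 (GRCm38): 35449 of 37315 entries matched, and 3 entries with a symbol already taken were dropped. The METTL3 groups were compared with edgeR 4.0.16 in R 4.3.3 (TMM, filterByExpr, robust glmQLFit, glmQLFTest, two-sided, Benjamini-Hochberg over 13697 genes, called at an adjusted p under 0.05). The SE was obtained from the log2 fold change and the root of the F statistic. DESeq2 1.42.0, limma 3.58.1 on log2(RPKM + 1) or log2(RPKM + 0.1), other scalings and filters, a replicate block and leaving out each library were alternatives. The fit was tested on simulated data. FTO ratios needed 50 reads or more in 1 of the libraries and used exact Poisson or binomial intervals.

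Members and gene lists were chosen with earlier results of these data known. Named list genes are the 2 with the largest METTL3 change and the 2 with the largest FTO change in each list, any called gene, and the 3 genes nearest to each member.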

Additional observations from a re-analysis of the deposited data

How the results depend on the processing

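Of the 7 members, 0 were called in the METTL3 comparison by edgeR with TMM, with DESeq2 size factors, with library totals, without a low-count filter or with a stricter one (5 CPM in 2 libraries), by DESeq2, by limma on RPKM with either pseudocount or without a filter, and with any 1 library left out (lowest adjusted p of a member 0.289 over these settings). The exception was edgeR with a replicate block, which called 2: C3 (log2 fold change -0.45, adjusted p = 1.6e-08) and Mt2 (0.29, adjusted p = 0.000321), among 3706 genes called (27.1% of those tested). The block leaves little of each gene's own spread to measure, so these p-values rest largely on spread shared across genes. No label ties a library number to a batch or culture. Over 13697 genes the differences between numbers 2 and 1 in the controls and in the knockdowns had a Pearson r of 0.74, given as a hint from the data and without a p. Hp turned to -0.0083 with library totals, and Saa3 turned to -0.00250 by limma with a pseudocount of 1, with or without the filter, and to -0.00256 with 0.1, against 0.04. With 1 library left out, the log2 fold change ran from -0.65 to 0.62 for Saa3, from -0.56 to 0.76 for Hp, from -0.89 to 0.73 for Clu, from -0.67 to -0.21 for C3, from 0.07 to 0.23 for Lcn2, from -0.48 to 0.64 for Mt1 and from -0.061 to 0.68 for Mt2. The direction changed in at least 1 of these fits for Saa3, Hp, Clu, Mt1 and Mt2 and held for C3 and Lcn2, 0 members were called, and the cause was not tested. Over all genes, edgeR called 2 with TMM, with DESeq2 size factors, with library totals and with the stricter filter, 111 without a filter, and 3, 2, 70 and 7 without control 1, control 2, knockdown 1 and knockdown 2. DESeq2 called 222 and limma 3, 2 and 0. In the FTO comparison 2 members were past 2-fold with a pseudocount of 0.25 CPM (C3 and Clu), against 1 with 1 CPM. From RPKM + 1 in place of CPM + 1, C3 stood at -1.20 against -1.27, and Clu at -0.38 against -0.93. The number of members past 2-fold between METTL3 numbers in both groups was 1 with either pseudocount, with library totals and from RPKM. Clu rests on 24 and 72 reads in the FTO libraries, which limits its precision.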

Other observations

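Of 13 genes for receptors of the members, 10 were tested in the METTL3 comparison and 0 were called by edgeR or DESeq2, with 2 at an unadjusted p under 0.05 by edgeR, against 11.5% of all genes, and with 8 positive and 2 negative log2 fold changes and a median of 0.27. Itgb2, the beta chain of the complement receptor that binds a C3 fragment, stood at 18.3 and 8.48 CPM in METTL3 knockdowns 1 and 2 and at 12.2 and 3.58 CPM in METTL3 controls 1 and 2 (0.76, SE 0.64). Tlr4, the receptor for bacterial lipopolysaccharide, stood at 6.66 and 5.30 CPM in the METTL3 knockdowns and 4.34 and 3.01 CPM in the METTL3 controls (0.70, SE 0.25, edgeR adjusted p = 0.399). In the FTO experiment Itgb2 had 42 reads in the knockdown and 112 in the control (log2 ratio -0.98), and Vldlr, a lipoprotein receptor, stood at 44.8 CPM in the knockdown and 28.9 CPM in the control (0.61).

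All 8 glucocorticoid targets were tested and 0 were called by edgeR or DESeq2, with 2 at an unadjusted p under 0.05 by edgeR, against 11.5% of all genes (median log2 fold change -0.09). Tsc22d3, which encodes the glucocorticoid-induced leucine zipper, stood at 42.3 and 45.1 CPM in the METTL3 knockdowns and 32.8 and 29.8 CPM in the METTL3 controls (0.48, SE 0.11, edgeR adjusted p = 0.284). Klf9 stood at 57.2 and 48.3 CPM in the knockdowns and 43.7 and 36.0 CPM in the controls (0.40, SE 0.15, edgeR adjusted p = 0.399). Between the FTO libraries, Zbtb16 had a log2 ratio of -0.77 and the kinase gene Sgk1 one of 0.57. Number 2 was lower than number 1 in both METTL3 groups for 4 of the 8, against 36.0% of all genes tested, and higher in both for 2.

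Among genes outside the members, 3 of the other acute-phase and complement lists had number 2 past 2-fold lower than number 1 in both METTL3 groups, and they were picked out after their values were seen. Serpina3n stood at -1.96 in the knockdowns and -1.997 in the controls, Lrg1 at -1.53 in the knockdowns and -1.36 in the controls, and the complement gene C4b at -1.40 in the knockdowns and -1.20 in the controls. Of all tested genes 0.161% met this.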
